A study of Mus musculus with 6 samples.

Results

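Hyaluronan is a very long, unsulfated sugar chain that fills and hydrates the space around fibroblasts. It is made at the cell surface by hyaluronan synthases, cut by hyaluronidases, held at the cell by receptors such as CD44, and organised into a pericellular coat by proteins that bind it or link its chains. The genes described here are the 9 of this system chosen by name: the synthases Has1, Has2 and Has3, the hyaluronidases Hyal1 and Hyal2, the receptor Cd44, and the matrix partners Vcan, Tnfaip6 and Ptx3. Of these, 8 had a probe set annotated to that gene alone, among 18193 genes measured. Hyal1 shares its probe sets with its neighbour Naa80 and was not analysed here.

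The series compared primary mouse fibroblasts that carry Delta9, an allele of the lamin A and C gene Lmna, with wild-type (WT) fibroblasts, with 3 samples of each. Published work describes this allele as one that gives mice a progeria-like disease; zygosity is not stated in the labels. Both groups shared the mixed strain background C57bl6X129S3/J, came from sibling-derived lines, were used at passage 3 and had been kept 72 hours without serum, a treatment that slows division. The cells are adult by the labels but post-natal by the design text. Nothing states that the 3 samples of a group came from different animals, so the p-values speak only of the spread among these 6 samples, which may be technical.

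Each sample was read on its own Affymetrix array, and values are log2 probe set summaries. The array medians lay between 3.36 and 3.43, and the number of arrays limits the precision. Lmna itself was lower on its brightest probe set, at 6.71 ± 0.52 in Delta9 and 8.67 ± 0.28 in WT (log2, SD, n = 3), and 4 of its 5 probe sets had lower means in Delta9. On 1457670_s_at the means were 5.58 ± 0.21 and 9.00 ± 0.37, and the level fell by 3.42 log2 or 10.7-fold (SE 0.22, adjusted p 0.00421 by limma over all probe sets). Where these probe sets lie in the gene is not known here, so they do not check the labels. All 10 fibroblast markers ranked in the upper part of the measured genes (percentile 83.1 and above). All 10 had lower means in Delta9, where 53.2% of all genes did, with a median difference of -0.25. Their mean per array was 10.3 to 10.5 in Delta9 and 10.7 to 10.9 in WT, with no overlap. Taken singly, 1 of the 10 (10%), Col1a1, had every Delta9 sample below every WT sample, beside 9.99% of all genes. Lum had the largest difference, -1.07 (SE 0.51). On Delta9 replicate 3 it read 8.25, above its WT range of 7.96 to 8.21. What part the lower marker mean has in the lower values of Ptx3 and Cemip was not tested. The 17 macrophage markers ran from percentile 43.7 to 99.7, so none was at the bottom of the scale. Of these, 17 of 17 had higher means in Delta9, as had 8516 of all 18193 genes. In 7 of the 17 every Delta9 sample was above every WT sample, beside 7.27% of all genes. Their mean per array lay between 9.50 and 10.1 in Delta9 and between 7.42 and 9.61 in WT, lowest on WT replicate 3. That array also had the largest 3′ minus 5′ signal of beta-actin, a measure of RNA quality, 1.41 against 0.51 to 0.86 on the others. For Gapdh this measure was 0.25 and 0.23 on Delta9 replicates 1 and 2 and 0.49 to 0.57 elsewhere. What part RNA quality has in the results was not tested. The poly-A control RNAs that are spiked into each sample read lowest on WT replicate 1 (4.85) and Delta9 replicate 3 (5.20), against 5.64 to 6.10 on the other 4 arrays. Both sets of values are given beside some of the genes below.

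In Delta9 fibroblasts the largest differences among these genes were those of Ptx3 and Vcan, whose proteins join the hyaluronan coat. Ptx3, the long pentraxin that helps link hyaluronan chains in the presence of TSG-6, was 2.33-fold lower. Vcan, the large hyaluronan-binding proteoglycan versican, was 2.07-fold higher. Has1, Has2, Has3, Hyal2, Cd44 and Tnfaip6 had differences of at most 0.25 log2 in size, each with a 95% interval that includes 0. None of the 8 genes passed the threshold, an adjusted p of 0.05 by limma with Benjamini-Hochberg adjustment over all genes, which 0.0605% of all genes passed. At an adjusted p under 0.1 there was 1 of the 8, Ptx3, beside 0.264% of all genes. At an unadjusted p under 0.05 there were 2 of the 8, where 10.6% of all genes were under it. The groups did not overlap for the same 2, or 25% of the 8, against 17.3% of all genes (9.99% lower and 7.27% higher in Delta9). Of the 8, 6 had higher and 2 lower means in Delta9, with a median difference of 0.08 log2, beside -0.01 over all genes.

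**Figure D1:**
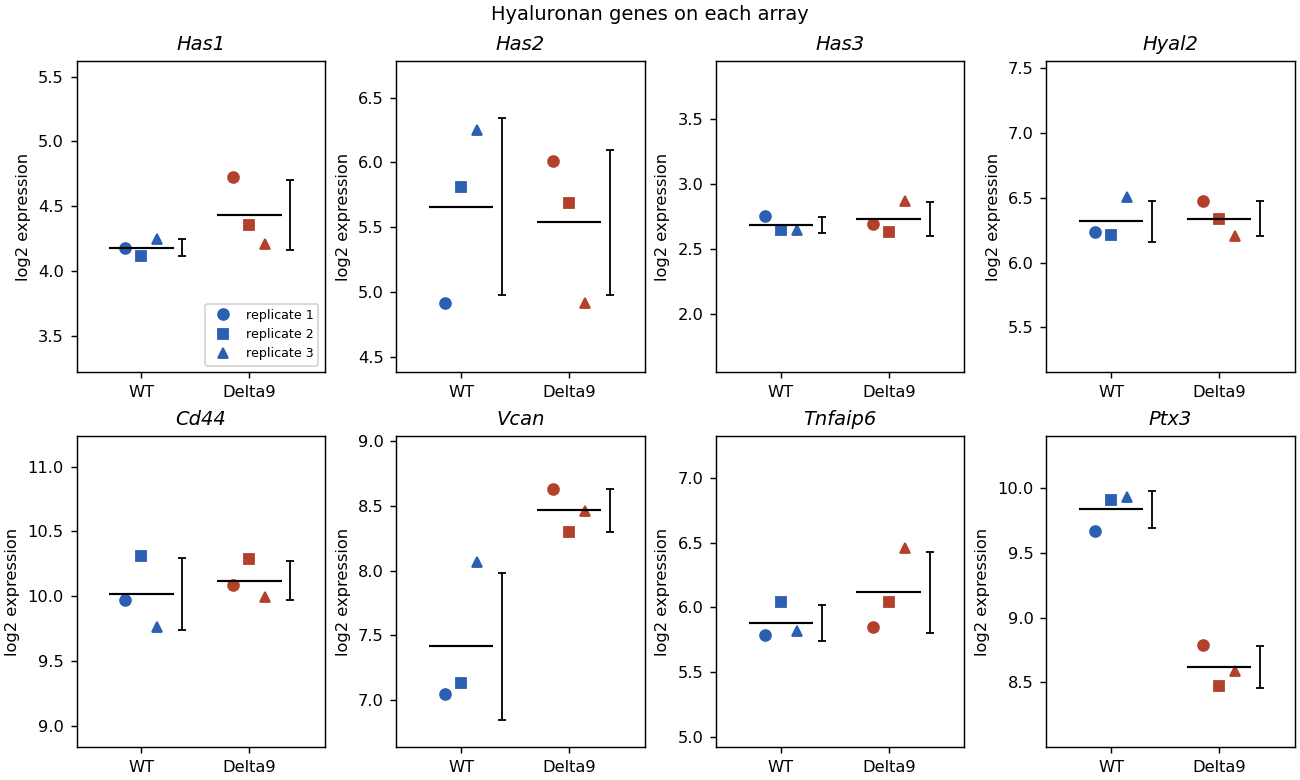
Level of each measured hyaluronan gene on each array (log2 expression, WT in blue, Delta9 in red, marker shape for the replicate number), with the group mean as a line and the SD (n = 3) as a bar beside it; each panel spans the same height on the log2 scale. The groups are apart for Vcan and Ptx3 and overlap for the other 6 genes.

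The sequences just upstream of the transcription start are shown for the genes of largest difference: Ptx3, Vcan and, from the wider list described further on, Cemip. Each is the 250 bases before the start from RefSeq, build GRCm38.p6, written 5′ to 3′ on the gene's strand. Ptx3 is on the plus strand at chr3:66219637-66219886, Vcan on the minus strand at chr13:89742513-89742762 and Cemip on the minus strand at chr7:84086506-84086755. Capitals mark matches, on either strand, to the motifs searched for.
Ptx3: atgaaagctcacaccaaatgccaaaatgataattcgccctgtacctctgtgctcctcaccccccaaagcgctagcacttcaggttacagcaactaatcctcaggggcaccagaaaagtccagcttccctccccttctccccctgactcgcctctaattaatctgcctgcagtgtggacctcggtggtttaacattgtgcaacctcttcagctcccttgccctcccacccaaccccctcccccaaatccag
Vcan: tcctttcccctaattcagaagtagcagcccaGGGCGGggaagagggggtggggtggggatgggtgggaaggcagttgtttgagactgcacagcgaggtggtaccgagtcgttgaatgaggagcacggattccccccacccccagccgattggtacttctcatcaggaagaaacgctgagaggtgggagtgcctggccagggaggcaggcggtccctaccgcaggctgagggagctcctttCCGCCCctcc
Cemip: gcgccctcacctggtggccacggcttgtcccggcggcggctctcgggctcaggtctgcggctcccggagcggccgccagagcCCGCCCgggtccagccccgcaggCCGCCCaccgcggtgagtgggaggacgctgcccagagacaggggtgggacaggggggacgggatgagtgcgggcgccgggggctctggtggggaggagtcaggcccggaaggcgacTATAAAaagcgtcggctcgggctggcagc
The motifs were AP-1 (TGANTCA), the TATA box (TATAAA), the GC box (GGGCGG), TCF/LEF (CTTTGAA or CTTTGAT or CTTTGTA or CTTTGTT) and NF-kB by its usual consensus. No 2 of the marked matches overlap. The window of Vcan held 2 GC boxes, starting 219 and 10 bases before the start site, and that of Cemip held 2 GC boxes and a TATA box 29 bases before it. A GC box was present in 32.7% of the 32851 RefSeq windows of this length and a TATA box in 12.4%. No match to these letters was found in the window of Ptx3. AP-1 was present in 6.75% of all windows, TCF/LEF in 14.8% and NF-kB in 3.9%, and in none of these 3. The windows were 54.0% (Ptx3), 62.4% (Vcan) and 75.2% (Cemip) G or C, beside a median of 52.4% over all windows. A match is a description of the letters and no evidence of binding.

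The synthases are the membrane enzymes that build the chain from UDP-sugars. Has2, the main synthase of many fibroblasts, read 6.01, 5.69 and 4.92 in the Delta9 samples, in order of replicate number, and 4.91, 5.81 and 6.25 in the WT samples (log2). Its values ranged widely in both groups, and Delta9 replicate 3 and WT replicate 1 were the low ones. The difference was -0.12 (SE 0.40, 95% interval -1.06 to 0.82, adjusted p 0.940 by limma), an interval that still holds a fold of about 2.09 lower or 1.77 higher. The difference turned to 0.58 (SE 0.34, adjusted p 0.619) once the macrophage mean entered the fit as a covariate, 0.19 without Delta9 replicate 3 and 0.18 without WT replicate 3. A second, dimmer Has2 probe set was lowest on the same arrays and gave a difference of -0.05 (SE 0.28). With the arrays split by spike-in signal as a block, the standard error of the Has2 difference was 0.17 and the difference stayed at -0.12 (adjusted p 0.752).

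Has1, a synthase that is usually weakly expressed, read 4.73, 4.36 and 4.21 in Delta9 and 4.18, 4.11 and 4.24 in WT. The groups overlapped only at Delta9 replicate 3, which lay between WT replicates 1 and 3. The difference was 0.25 (SE 0.16, 95% interval -0.13 to 0.63, adjusted p 0.618), and without Delta9 replicate 1, the highest sample, it was 0.11. Has3, which makes shorter chains, was dim, with a mean over the 6 arrays at percentile 19.9 of all genes. It read between 2.63 and 2.87 in Delta9 and between 2.65 and 2.76 in WT, with a difference of 0.05 (SE 0.09, 95% interval -0.17 to 0.27).

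Hyal2, the hyaluronidase anchored at the cell surface that starts the breakdown of long chains, read 6.47, 6.34 and 6.21 in Delta9 and 6.23, 6.22 and 6.50 in WT. The groups covered the same range. The difference was 0.02 (SE 0.15, 95% interval -0.33 to 0.38, adjusted p 0.970), and its sign turned when Delta9 replicate 1, WT replicate 1 or 2 was left out and under quantile normalization (-0.023). Of the 8 genes it had the smallest difference.

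Cd44, the main cell surface receptor for hyaluronan, was bright, at 10.1 ± 0.15 in Delta9 and 10.0 ± 0.28 in WT (SD, n = 3). Its 3 Delta9 values of 10.1, 10.3 and 9.99 lay within the WT range of 9.76 to 10.3. The difference was 0.11 (SE 0.17, 95% interval -0.28 to 0.50, adjusted p 0.854) and turned to -0.018 with array weights, -0.0053 with the macrophage covariate and -0.022 without WT replicate 3. The probe sets of Cd44 disagreed. Probe set 1434376_at gave a difference of -0.05 (SE 0.13), and the dim 1443265_at one of -0.18 (SE 0.10). Probe set 1452483_a_at differed by 0.68 (SE 0.27, unadjusted p 0.0354, adjusted p 0.530 over all probe sets by limma). It read 6.10, 6.01 and 5.22 in Delta9 and 4.80, 5.31 and 5.17 in WT. Only Delta9 replicate 3 fell within the WT range. Which Cd44 transcripts each probe set reads was not determined.

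Tnfaip6 encodes TSG-6, a secreted protein that moves heavy chains of inter-alpha-inhibitor onto hyaluronan. It read 5.85, 6.04 and 6.46 in Delta9 and 5.78, 6.04 and 5.82 in WT. Delta9 replicate 3 was the one sample outside the WT range. The difference was 0.24 (SE 0.19, 95% interval -0.21 to 0.69, adjusted p 0.696), and 0.06 without that sample.

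Ptx3 had the largest difference of the 8 genes and the lowest p. It read 8.79, 8.47 and 8.58 in Delta9 and 9.67, 9.91 and 9.93 in WT (log2). Every Delta9 sample was below every WT sample, and the gap between the groups was wider than the range within either. The means were 8.62 ± 0.16 and 9.84 ± 0.14 (SD, n = 3). The difference was -1.22 (SE 0.14, 95% interval -1.55 to -0.89), or 2.33-fold lower with an interval of 1.86 to 2.92. Its unadjusted p was 4.25e-05 and its adjusted p 0.0597 by limma, just short of the threshold. The second Ptx3 probe set, 1456903_at, read 3.56, 3.32 and 3.56 in Delta9 and 4.08, 4.52 and 4.12 in WT. It was dim, and its groups were apart as well, with a difference of -0.76 (SE 0.16).

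The call on Ptx3 moved with the arrays and with the fit while its size did not. Its adjusted p was 0.0391 without Delta9 replicate 3, where 0.445% of all genes passed, and 0.158 to 0.290 when any other sample was left out. It was 0.0129 with the spike-in split as a block, where 0.819% of all genes passed, and 0.0422 within the 4 arrays on the upper side of that split, where 0.335% passed. It was 0.0353 with quantile normalization (0.066% of genes passed) and 0.0106 with array weights (0.764%), and 0.403 with the macrophage covariate. The difference itself lay between -1.31 and -0.99 over the 17 alternative fits, and it was -1.12 (SE 0.17) with that covariate.

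Vcan differed the other way. Its brightest probe set, 1427256_at, read 8.63, 8.30 and 8.46 in Delta9 and 7.04, 7.13 and 8.07 in WT (log2). All 3 Delta9 samples were higher than all 3 WT samples, but WT replicate 3 stood close to them and made the WT spread wide. The means were 8.47 ± 0.17 and 7.42 ± 0.57 (SD, n = 3), a difference of 1.05 (SE 0.28, 95% interval 0.39 to 1.71), or 2.07-fold with an interval of 1.31 to 3.27. It did not pass (unadjusted p 0.00683, adjusted p 0.291 by limma), and in the 17 alternative fits its adjusted p lay between 0.0612 and 0.618.

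Of the 8 Vcan probe sets, 7 had the same sign. The brighter ones gave similar sizes. Probe set 1421694_a_at read 7.49, 7.20 and 6.40 in Delta9 and 4.89, 5.84 and 6.53 in WT, with a difference of 1.28 (SE 0.44). Here Delta9 replicate 3 fell below WT replicate 3, so the groups overlapped. Probe set 1427257_at read 5.77, 5.06 and 5.16 in Delta9 and 3.86, 4.62 and 4.40 in WT, with no overlap and a difference of 1.04 (SE 0.26). The other 5 probe sets were near the bottom of the scale and differed by -0.09 to 0.20. For that reason the mean of all Vcan probe sets gave only 0.47 (SE 0.13). Versican has splice forms that differ in their sugar-carrying middle part, and which of them each probe set reads was not determined.

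**Figure D2:**
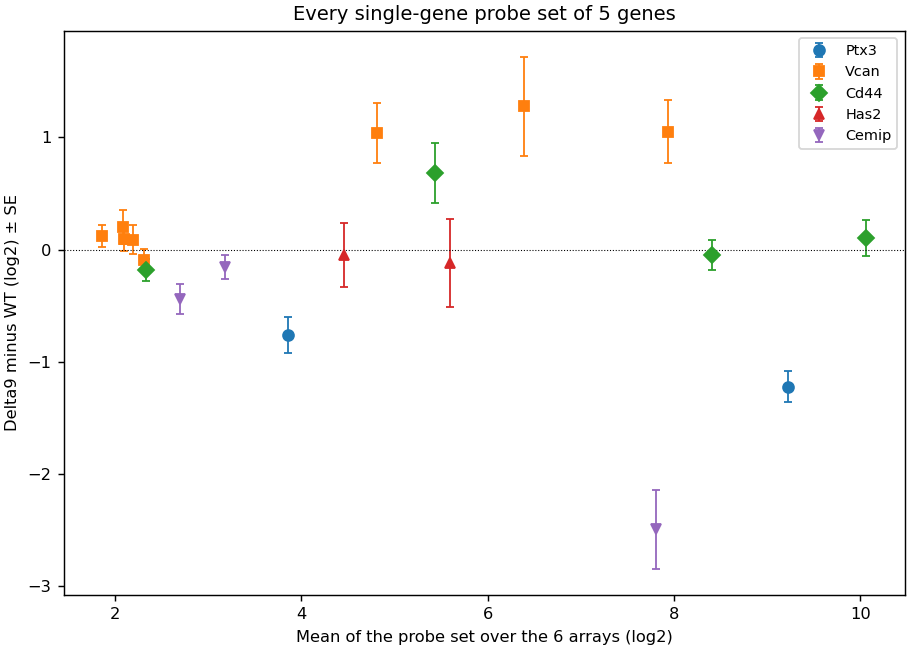
Difference of every single-gene probe set of Ptx3, Vcan, Cd44, Has2 and Cemip (vertical axis, Delta9 minus WT in log2, bars ± SE) against its mean over the 6 arrays (horizontal axis, log2). The 3 brighter Vcan probe sets lie between 1.04 and 1.28, both Ptx3 probe sets lie below 0, and the dim probe sets of Vcan, Ptx3 and Cemip lie nearer to 0 than the brightest ones of these genes. The Cd44 probe sets lie on both sides of 0, with the 2 dimmer ones further out.

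The macrophage markers, higher in Delta9, and Vcan, which macrophages can also make, are given side by side. Among the WT arrays, replicate 3 had the lowest macrophage mean, 7.42, and the highest Vcan, 8.07. Replicate 1 of WT had the highest macrophage mean of that group, 9.61, and the lowest Vcan, 7.04. On the Delta9 arrays the macrophage means were 9.70, 9.50 and 10.1, and Vcan read 8.63, 8.30 and 8.46. With the macrophage mean as a covariate the difference of Vcan was 1.55 (SE 0.22, adjusted p 0.338 by limma). Without WT replicate 3, and with no covariate, the difference was 1.38 (SE 0.16). The macrophage mean ran from 9.50 to 10.1 in Delta9 and from 7.42 to 9.61 in WT, so the covariate fit cannot separate it from the group. What part macrophages have in the Vcan difference was not tested. In bulk samples fewer cells of a type and less RNA per cell cannot be told apart.

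By the Pearson correlation over the 6 samples, the genes outside the hyaluronan lists most like Ptx3 among 18143 were Col11a1, a chain of a minor fibrillar collagen (r = 0.999), Dennd3 (0.992) and Nxph1 (0.991). Col11a1 read 7.45, 7.25 and 7.28 in Delta9 and 8.23, 8.42 and 8.46 in WT. Dennd3 differed by only -0.33, and Nxph1 by -0.12 near the bottom of the scale. Most like Vcan were Coq9 (r = 0.989), Man2a1, a Golgi mannosidase of N-glycan processing (0.988), and Ropn1l (0.984), with differences of 0.17, 0.41 and 0.41. The 6 arrays share the group difference, and these values are a description with no test.

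A wider list of 43 genes of the same system was then read by role. Of these, 42 were measured. None passed the threshold by limma, and 7 (16.7%) were under an unadjusted p of 0.05, 4 lower and 3 higher in Delta9. Of all genes 10.6% were under that p, 6.06% lower and 4.54% higher. The groups did not overlap for 10 of the 42 (23.8%), 6 lower and 4 higher in Delta9, beside 17.3% of all genes. The median difference was -0.01, as over all genes.

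Cemip stood furthest out. It encodes a protein that binds hyaluronan and takes part in its breakdown by skin fibroblasts. It read 7.15, 6.72 and 5.81 in Delta9 and 9.34, 8.61 and 9.21 in WT (log2). Every Delta9 sample was more than 1 log2 unit below every WT sample. The difference was -2.49 (SE 0.36, 95% interval -3.33 to -1.65), or 5.63-fold lower, with an adjusted p of 0.0899 by limma. It passed in 3 of 17 alternative fits: 0.0337 without Delta9 replicate 3, its lowest sample, where the difference was -2.12, 0.0368 with the spike-in split as a block and 0.0293 with array weights. With the macrophage covariate the difference was -2.35 (SE 0.48, adjusted p 0.481). The other Cemip probe sets were dim, with differences of -0.44 and -0.15, and the mean over all 3 gave -1.03. Cemip2, a related membrane protein, read 6.49, 6.37 and 5.69 in Delta9 and 6.03, 6.15 and 4.59 in WT, and its groups overlapped.

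Among the lysosomal enzymes that finish the breakdown of hyaluronan pieces, Gusb, beta-glucuronidase, read 8.34, 8.58 and 9.00 in Delta9 and 8.07, 7.80 and 7.36 in WT. Its groups were apart, with a difference of 0.90 (SE 0.24, adjusted p 0.291), which was 0.50 with the macrophage covariate. Hexa, a subunit of beta-hexosaminidase, differed by 0.41 (SE 0.20). Hyal3, Hyal4, Hyal5 and Spam1, other members of the hyaluronidase family, were dim and differed by -0.10 to 0.13.

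Receptors of the wider list other than Stab2 had higher means in Delta9, 6 of 7, as had 8516 of all 18193 genes. For Lyve1, Hmmr and Layn the differences were small, 0.05, 0.07 and 0.15. Tlr2 differed by 0.58 (SE 0.25, adjusted p 0.472 by limma), and its groups overlapped. Stab1, a scavenger receptor of macrophages and sinusoidal endothelium, read 8.83, 8.01 and 9.16 in Delta9 and 7.89, 7.96 and 6.35 in WT. Tlr4, the innate receptor reported to respond to hyaluronan fragments, read 6.35, 6.32 and 6.76 in Delta9 and 6.20, 5.74 and 5.71 in WT. Neither overlapped, so 2 of the 7 receptors (28.6%) were wholly higher in Delta9, beside 7.27% of all genes. The differences were 1.27 (SE 0.48) and 0.59 (SE 0.20), with adjusted p of 0.428 and 0.385 by limma. With the macrophage covariate the differences were 0.34 (SE 0.34) for Stab1 and 0.34 (SE 0.21) for Tlr4. Without WT replicate 3 that of Stab1 was 0.74 and that of Tlr4 0.51. The covariate ran from 9.50 to 10.1 in Delta9 and from 7.42 to 9.61 in WT, so this fit cannot separate it from the group. On WT replicates 2 and 3 it was 8.89 and 7.42, where Stab1 read 7.96 and 6.35 and Tlr4 5.74 and 5.71. A part of macrophages in these differences was not tested. Lyve1 and Stab2, receptors of lymphatic and sinusoidal endothelium, were dim.

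**Figure D3:**
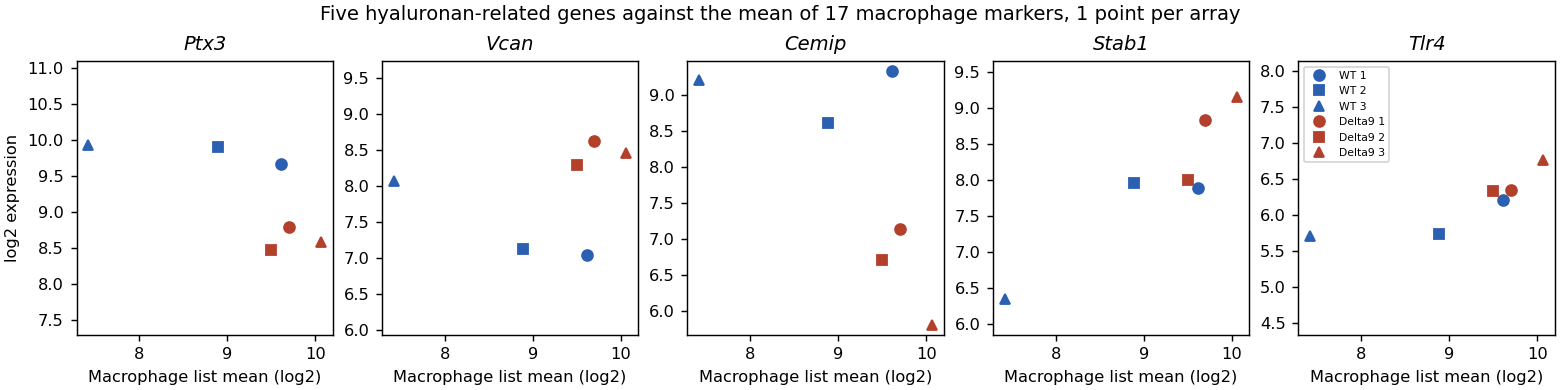
Level of Ptx3, Vcan, Cemip, Stab1 and Tlr4 (vertical axes, log2) against the mean of the 17 macrophage markers (horizontal axis, log2), with 1 point per array. Stab1 and Tlr4 are lowest on WT replicate 3, which has the lowest macrophage mean. Tlr4 is nearly as low on WT replicate 2 (5.74, against 5.71 on replicate 3). WT replicate 1 lies within the Delta9 range of that mean and above all Delta9 samples for Ptx3 and Cemip. What part macrophages have in these levels was not tested.

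The chains of inter-alpha-inhibitor, whose heavy chains TSG-6 moves onto hyaluronan, had lower means in Delta9 for 5 of 6 genes. Of all genes 53.2% had lower means, and most of these 6 are liver genes and were dim here. Itih2 read 3.39, 3.54 and 3.24 in Delta9 and 3.56, 4.19 and 4.52 in WT, with a difference of -0.70 (SE 0.24, adjusted p 0.396). It was -0.24 (SE 0.17) with the macrophage covariate. Itih1 differed by -0.32 (SE 0.13, adjusted p 0.445), which was -0.21 without WT replicate 3 and -0.15 (SE 0.14) with the macrophage covariate. For Itih1 and Itih2, 2 of the 6 chains (33.3%), every Delta9 sample was below every WT sample, beside 9.99% of all genes. Among the proteases that can cleave versican, Adamts9 read 6.07, 6.05 and 5.18 in Delta9 and 6.34, 6.24 and 6.90 in WT. Its difference was -0.73 (SE 0.29, adjusted p 0.453), which was -0.43 without Delta9 replicate 3 and -0.32 with the macrophage covariate. Adamts1 and Adamts5 differed by -0.01 (SE 0.18) and -0.32 (SE 0.22). The other hyaluronan-binding proteoglycans and the link proteins gave no gene under an unadjusted p of 0.05; Bcan, brevican, and Hapln2, a link protein, had the largest differences, -0.29 (SE 0.14) and -0.18 (SE 0.10).

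**Figure D4:**
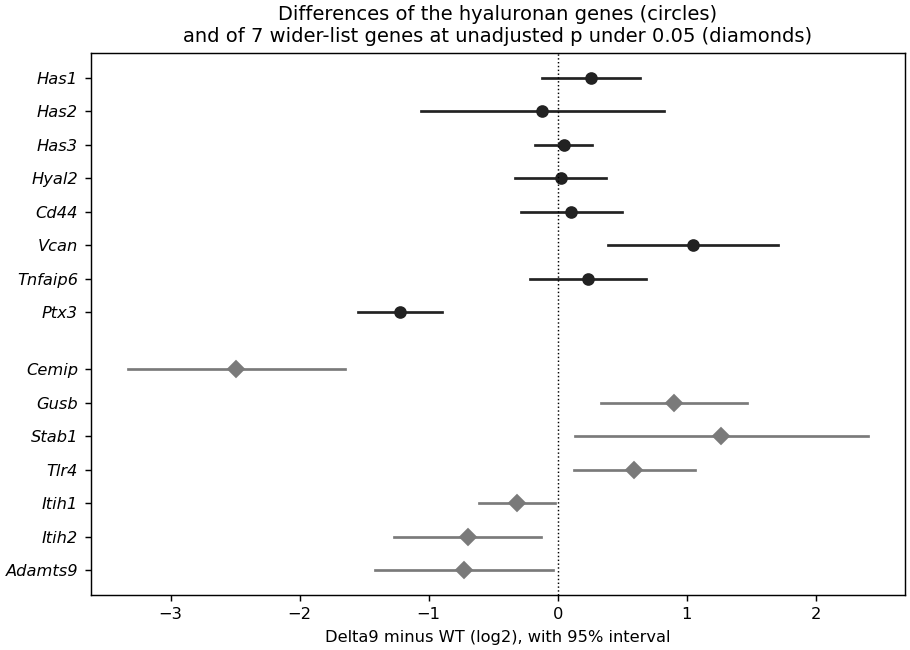
Difference between the groups (horizontal axis, Delta9 minus WT in log2) with its 95% interval for the 8 measured hyaluronan genes (circles) and the 7 wider-list genes under an unadjusted p of 0.05 (diamonds). The diamonds were chosen by that p, so their intervals leave out 0 by choice; among the circles the intervals of Vcan and Ptx3 leave out 0.

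Of the 8 enzymes that make the sugar precursors, 0 were under an unadjusted p of 0.05 by limma. Nagk, N-acetylglucosamine kinase, read 8.10, 7.93 and 8.01 in Delta9 and 7.59, 7.66 and 7.90 in WT, and was the 1 of the 8 whose groups did not overlap (12.5%, beside 17.3% of all genes). Its difference was 0.30 (SE 0.14). Gfpt1, the entry enzyme of the hexosamine pathway, had the next largest, -0.29 (SE 0.14), and its groups overlapped. Several of the precursor enzymes followed Has2 across the arrays, a pattern noticed after the values were seen. Delta9 replicate 3 and WT replicate 1, the arrays of lower spike-in signal, were both below all 4 others for Has2 and for 5 of the 8 precursor enzymes, Gfpt2, Gnpnat1, Pgm3, Uap1 and Ugp2, where 19.3% of all genes did so. Gfpt2 read 7.64, 7.52 and 6.39 in Delta9 and 6.49, 7.29 and 7.46 in WT. Averaged over those arrays, Has2 was 1.03 log2 lower, Gfpt2 1.04 lower and Gnpnat1 0.99 lower than over the other 4. Ugdh, which makes the UDP-glucuronic acid building block, was 0.14 higher there, and the dim Has3 was 0.16 higher. Has1 was 0.17 lower there. What part the spike-in difference has in this was not tested.

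**Figure D5:**
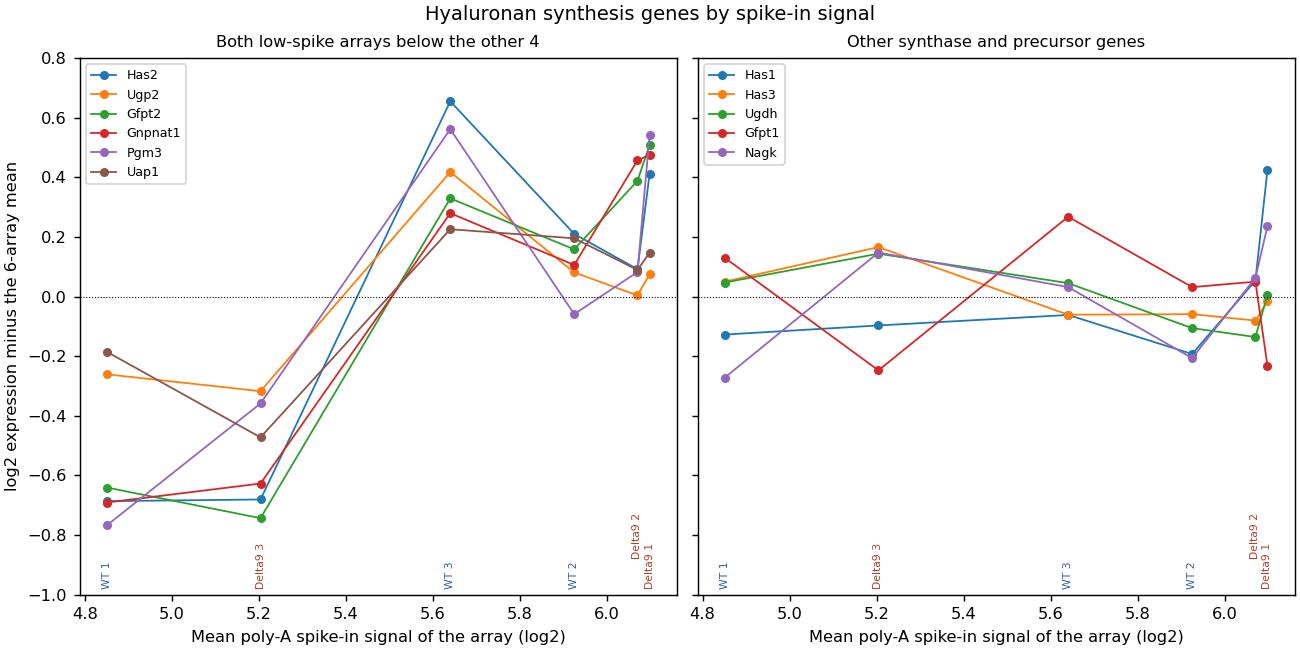
Synthases and precursor enzymes on each array (vertical axis, log2 expression minus the 6-array mean) against the mean poly-A spike-in signal of the array (horizontal axis, log2); lines join the arrays in order of that signal. On the left, Has2 and 5 precursor enzymes are lowest on WT replicate 1 and Delta9 replicate 3. On the right are the other 5 genes, which are not lowest on both of these arrays. Has3 and, by a small margin, Ugdh are highest on them.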

How the data were processed

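Primary fibroblast RNA was labelled with biotin and hybridised to Affymetrix arrays, per the labels' protocols. The authors deposited log2 probe set summaries for 45101 probe sets on 6 arrays; how they were summarised and normalized is not given in the sources used here, and the base of the logarithm was taken from their range. The 64 control probe sets were kept apart. Of the rest, 34945 had 1 gene symbol in the platform annotation, 932 had several and 9160 are unnamed here; 34741 matched RefSeq (GRCm38.p6) by Entrez identifier. Each of 18193 genes was represented by its brightest probe set over the 6 arrays, with no filter.

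Delta9 was compared with WT (3 against 3) with limma 3.58.1 in R 4.3.3 (lmFit, eBayes with trend), with Benjamini-Hochberg adjustment over all genes and a threshold of 0.05. The model was tested on simulated data. The members, lists and alternatives were chosen with earlier results of these data known. Named were the 9 genes, Lmna, and from each role of the wider list the genes under an unadjusted p of 0.05 or, failing that, the 2 of largest difference, plus the 3 genes most like Ptx3 and Vcan; other genes named were chosen after their values were seen. Tmem2 is an older symbol of Cemip2 and was counted once; 1 gene of the wider list is not reported here. Same-numbered samples did not deviate together (correlations of deviations -0.40, 0.17 and -0.43), so the numbers were not taken as pairs. The highest such correlation, 0.59, was that of Delta9 replicate 3 with WT replicate 1, the arrays of lower spike-in signal. These values cannot show that the samples were unpaired, because a difference between arrays can hide a pairing. Figures were drawn with matplotlib 3.10.9.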

Additional observations from a re-analysis of the deposited data

How the results depend on the processing

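The direction of Ptx3, Vcan, Has1, Tnfaip6 and Cemip was kept in all 17 alternative fits, and the median difference of the 8 genes stayed between 0.029 and 0.17. The count of the 8 genes past the threshold, 0 in the report (limma; 2 at an unadjusted p under 0.05), was 1 with an adjusted p of 0.1, quantile normalization, array weights, the spike-in split as a block, or within the upper 4 arrays of that split, and 0 to 1 with single samples left out; that 1 gene was Ptx3 each time. The count over all genes, 11, was 48 at an adjusted p of 0.1, 139 with array weights, 149 with the spike-in block, 61 within the 4 arrays and 2 with the macrophage covariate, and ran from 1 to 81 with single samples left out. With the replicate number as a block 0 genes passed (limma; 1348 at an unadjusted p under 0.05), and the adjusted p of Ptx3 was 0.350; this block leaves few degrees of freedom. The wider list held 4 genes under an unadjusted p of 0.05 with the replicate block or the macrophage covariate, 12 with the spike-in block and 4 to 8 with single samples left out, against 7.

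Signs turned for Hyal2 with quantile normalization (-0.023), Cd44 with array weights (-0.018) and the macrophage covariate (-0.0053), Has2 (0.58) and Has3 (-0.030) with that covariate, Cd44 on 1434376_at (-0.046) and 1443265_at (-0.18), and Vcan on the dim 1459767_x_at (-0.088). With single samples left out Has2 ran from -0.49 to 0.19, Has3 from -0.025 to 0.10, Hyal2 from -0.046 to 0.11 and Cd44 from -0.022 to 0.25. The cause of these changes was not tested. The spike-in split rests on a gap between 5.20 and 5.64, little wider than that between 4.85 and 5.20. Dim probe sets, such as those of Has3 and Itih1, limit what can be seen.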

Other observations

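Some genes of the wider list varied widely between arrays without separating the groups. Adamts4, a protease that cleaves aggrecan and versican, read 7.84, 6.85 and 5.84 in Delta9 and 5.54, 6.08 and 6.48 in WT (log2), lowest on WT replicate 1 and Delta9 replicate 3. Itih5, a heavy chain made outside the liver, ran the other way, with 5.13, 6.44 and 7.35 in Delta9 and 7.38, 6.39 and 6.45 in WT, highest on those arrays. The range of Itih5 over the 6 arrays was 2.26 log2 and that of Adamts4 was 2.30. Hmmr, a hyaluronan-binding protein of the mitotic spindle, read 6.88, 7.23 and 6.21 in Delta9 and 6.36, 6.84 and 6.92 in WT.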
